A study of Mus musculus with 16 samples.

Results

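Pyroxd2, Hps1, Gm35867 and Gm26902 are 4 of the 32285 genes in the count matrices, and all of them lie between 34 and 46 Mb of chromosome 19, the chromosome that carries Ch25h. They were chosen because they differed between libraries labelled Ch25h-/- and Ch25h+/+ in an earlier analysis of these same data. Their values in that comparison are therefore given as a description, without a test. For them, tests are given only for the tau effect and for the order of the cell classes, neither of which is the comparison that chose them. The height of a gene in a class can still have helped it to be chosen. Other genes of the stretch and of related pathways were tested in the comparison that chose the 4, with the 4 left out.

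The nuclear RNA came from the hippocampus of female mice aged 9 months, and 16 libraries were made, 4 in each of 4 groups. By their labels, Ch25h was intact on both copies in the groups Ch25h+/+ Tau- and Ch25h+/+ Tau+. It was deleted on both, again by the labels, in Ch25h-/- Tau- and Ch25h-/- Tau+, and tau is recorded only as present (Tau+) or absent (Tau-). The labels do not name the tau line, the promoter that drives it or the part of Ch25h that was deleted, and they do not say whether any libraries share an animal. P-values therefore measure the spread between these libraries.

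CH25H hydroxylates cholesterol to 25-hydroxycholesterol and is known as an interferon-induced gene of macrophages and microglia. PYROXD2 is a mitochondrial protein with a pyridine nucleotide-disulphide oxidoreductase domain, the fold that binds FAD in enzymes such as thioredoxin reductase. HPS1 pairs with HPS4 in the BLOC-3 complex, which activates the small GTPases RAB32 and RAB38 in the making of lysosome-related organelles such as melanosomes and platelet dense granules. Gm35867 and Gm26902 are long noncoding RNA genes.

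On GRCm38 (GENCODE M21, where Gm35867 was matched by its gene identifier) Pyroxd2 spans chr19:42725858-42752775 on the minus strand, 8.25 Mb from the start of Ch25h. Hps1 follows on the same strand at chr19:42755105-42779978, so that 2329 bases separate the end of Hps1 from the start of Pyroxd2. Gm35867 spans chr19:45058841-45110342 on the plus strand, and Kazald1 (chr19:45075241-45079289) lies inside it on that strand. Gm26902 spans chr19:34474808-34481546 on the plus strand and is annotated as sharing a bidirectional promoter. It overlaps 357 bases of Ch25h (chr19:34473778-34475164, minus strand). The sources used here do not state whether intronic reads were counted or whether strand was used, so reads from Gm26902 and Ch25h, from Gm35867 and Kazald1, or from Pyroxd2 and an antisense gene inside it, cannot be told apart with certainty.

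The 250 bases before the RefSeq start (GRCm38.p6) are shown for the adjacent pair that differed in opposite directions and for Ch25h, whose upstream bases lie inside Gm26902. All are 5′ to 3′ on the minus strand. Capitals mark matches on either strand to the GC box, spelled GGGCGG, the E-box, spelled CACGTG, the cyclic AMP response element, spelled TGACGTCA, the motif CCAAT, and the TATA box, here searched for as TATAAA. The first sequence is chr19:42752776-42753025, the second chr19:42779979-42780228 and the third chr19:34475149-34475398.
Pyroxd2: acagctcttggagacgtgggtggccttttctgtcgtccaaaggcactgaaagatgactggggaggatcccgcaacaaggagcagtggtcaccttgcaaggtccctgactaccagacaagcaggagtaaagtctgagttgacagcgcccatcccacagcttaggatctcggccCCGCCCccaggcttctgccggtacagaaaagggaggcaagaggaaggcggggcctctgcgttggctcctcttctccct
Hps1: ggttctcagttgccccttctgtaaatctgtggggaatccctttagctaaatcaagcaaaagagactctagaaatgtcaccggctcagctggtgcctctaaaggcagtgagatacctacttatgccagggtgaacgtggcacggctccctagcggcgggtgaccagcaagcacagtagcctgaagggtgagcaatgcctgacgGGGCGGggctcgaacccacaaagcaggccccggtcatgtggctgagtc
Ch25h: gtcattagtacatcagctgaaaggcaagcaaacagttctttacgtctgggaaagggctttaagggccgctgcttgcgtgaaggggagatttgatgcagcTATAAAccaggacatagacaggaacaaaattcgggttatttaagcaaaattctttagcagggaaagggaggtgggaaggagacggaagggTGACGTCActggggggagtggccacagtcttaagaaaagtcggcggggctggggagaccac
Pyroxd2 and Hps1 each held 1 GC box, which 32.7% of the 32851 RefSeq windows of this length hold on either strand. It lay 78 bases before the start of Pyroxd2 and 48 before that of Hps1. The Ch25h window held a cyclic AMP response element 61 bases before the start, found in 1.55% of windows, and a TATA box 151 bases before it, found in 12.4%. A match describes these letters and shows no binding.

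The libraries held 51270831 to 84870650 unique molecular identifiers (UMIs, single captured transcripts), and 7601 to 10567 nuclei per library were kept, 136828 in all. Any pair of libraries shared 8 to 36 barcode sequences. Nuclei were clustered, and 123601 nuclei fell in 17 named classes. A cluster took the class of highest mean marker fold among those with at least 3 markers at 2-fold. That mean could be negative, so some neuronal names rest on a few markers of a list. The largest CA pyramidal cluster (7705 nuclei before doublets were removed) had a mean log2 fold at or below -0.107. An other excitatory cluster of 3748 had -0.0393. The leading principal component split replicates 1 and 2 of every group from replicates 3 and 4 for 16 of 16 libraries over all nuclei. Batch 1 stands for the former pair and batch 2 for the latter, although the labels name no batch. Ch25h itself had 132 UMIs in the 8 libraries labelled Ch25h+/+ and 171 in the 8 labelled Ch25h-/-, or 0.335 ± 0.204 and 0.40 ± 0.113 CPM (UMIs of a gene scaled to a fixed library total of 1e6; SD, n = 8). In microglia it had 32 UMIs in Ch25h+/+ Tau+ and 7 in Ch25h-/- Tau+, with overlapping libraries (8.75 ± 8.63 and 2.32 ± 1.81 CPM, SD, n = 4), and 0 in both Tau- groups. In CA pyramidal neurons, DG (dentate gyrus) granule neurons and other excitatory neurons it had 5, 2 and 9 UMIs in libraries labelled Ch25h+/+ and 29, 19 and 33 in those labelled Ch25h-/-. Inhibitory neurons, the named class with the most, ran the other way, at 54 and 43 UMIs (1.45 ± 0.532 and 1.02 ± 0.372 CPM, SD, n = 8). The kit counts 3′ ends, and an end outside the deleted part would check nothing, so these counts, which are not lower over all nuclei in Ch25h-/-, do not settle whether the labels hold. The libraries are named here by their labels, and "with Ch25h intact" and "without Ch25h" stand for those labels throughout.

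In the libraries labelled Ch25h+/+ Tau-, replicates 2 and 4 stood apart from replicates 1 and 3 in Pyroxd2. In Gm35867 they were the 2 highest, at 3.14 and 1.94 CPM, but replicate 4 lay nearer to replicate 3 (1.41 CPM) than to replicate 2. Replicate 2 is in batch 1 and replicate 4 in batch 2. Gm26902, which overlaps Ch25h, read 0.606 and 0.621 CPM in replicates 2 and 4 and 0.692 and 0.706 CPM in replicates 1 and 3. Libraries labelled Ch25h-/- read at most 0.417 CPM of it. The genotype of replicates 2 and 4 on chromosome 19 was not checked here, so the values of Ch25h+/+ Tau- rest on the labels. Why these replicates stood apart was not tested. The log2 ratios of Tau- over all nuclei are given with and without replicates 2 and 4.

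Pyroxd2 RNA was lower in every library labelled Ch25h-/- than in every library labelled Ch25h+/+. It read 5.36, 2.79, 5.76 and 2.39 CPM in replicates 1 to 4 of Ch25h+/+ Tau- and 7.0, 5.11, 5.91 and 5.41 CPM in those of Ch25h+/+ Tau+. It read 1.58, 0.998, 1.46 and 1.17 CPM in Ch25h-/- Tau- and 1.45, 1.66, 1.43 and 1.23 CPM in Ch25h-/- Tau+. The genotypes did not overlap, and the intact libraries nearest to the others were replicates 2 and 4 of Ch25h+/+ Tau-. The means were 4.07 ± 1.73 against 1.30 ± 0.267 CPM in Tau- and 5.86 ± 0.831 against 1.44 ± 0.179 CPM in Tau+ (SD, n = 4). The log2 ratio of Ch25h-/- to Ch25h+/+ was -1.65 in Tau- and -2.02 in Tau+. Without replicates 2 and 4 of Ch25h+/+ Tau- the ratio in Tau- was -2.09. It was -1.66 and -1.63 within batches 1 and 2 in Tau-, and -1.96 and -2.09 in Tau+. These sums run over all nuclei, in which fewer nuclei of a class and less RNA per nucleus cannot be told apart.

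Hps1, the neighbour of Pyroxd2, was higher rather than lower in libraries labelled Ch25h-/-, by a smaller ratio. It read 17.2, 20.9, 18.7 and 18.9 CPM in replicates 1 to 4 of Ch25h+/+ Tau- and 19, 17.6, 18.7 and 16.6 CPM in those of Ch25h+/+ Tau+. It read 22.4, 25.1, 26.1 and 22.1 CPM in Ch25h-/- Tau- and 25.7, 24.9, 26.6 and 28.3 CPM in Ch25h-/- Tau+. All 8 libraries labelled Ch25h-/- lay above all 8 labelled Ch25h+/+, and replicate 2 of Ch25h+/+ Tau- was the highest of the intact ones. The means were 18.9 ± 1.52 against 23.9 ± 1.97 CPM in Tau-, a log2 ratio of 0.34, which was 0.42 without replicates 2 and 4 of Ch25h+/+ Tau-. In Tau+ they were 18.0 ± 1.07 against 26.4 ± 1.47 CPM, a log2 ratio of 0.55, which was 0.47 within batch 1 and 0.64 within batch 2.

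Gm35867 RNA was 5.08-fold higher in libraries labelled Ch25h-/- in Tau+, and in Tau- the intact libraries differed widely among themselves. It read 0.605, 3.14, 1.41 and 1.94 CPM in replicates 1 to 4 of Ch25h+/+ Tau- and 0.80, 0.863, 0.854 and 0.939 CPM in those of Ch25h+/+ Tau+. It read 3.57, 2.97, 3.71 and 2.84 CPM in Ch25h-/- Tau- and 3.79, 4.96, 4.25 and 4.54 CPM in Ch25h-/- Tau+. In Tau+ the genotypes did not overlap, and in Tau- replicate 2 of the intact libraries lay inside the range of the Ch25h-/- libraries. The log2 ratio was 2.34 in Tau+ (0.864 ± 0.0575 against 4.39 ± 0.492 CPM, SD, n = 4) and 0.88 in Tau- (1.78 ± 1.06 against 3.28 ± 0.431 CPM). In Tau- it was 1.31 without replicate 2 of Ch25h+/+ Tau- and 1.70 without replicates 2 and 4.

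Gm26902, the noncoding gene that overlaps Ch25h, had 283 UMIs in libraries labelled Ch25h+/+ and 114 in those labelled Ch25h-/-. It read 0.692, 0.606, 0.706 and 0.621 CPM in replicates 1 to 4 of Ch25h+/+ Tau- and 1.02, 0.638, 0.700 and 0.779 CPM in those of Ch25h+/+ Tau+. It read 0.263, 0.224, 0.227 and 0.188 CPM in Ch25h-/- Tau- and 0.309, 0.259, 0.307 and 0.417 CPM in Ch25h-/- Tau+. The genotypes did not overlap. Replicates 2 and 4 were the 2 lowest of Ch25h+/+ Tau- and all 4 libraries of that group stayed between 0.606 and 0.706 CPM. The log2 ratio was -1.54 in Tau- and -1.28 in Tau+. Without replicates 2 and 4 it was -1.63 in Tau-.

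**Figure D1:**
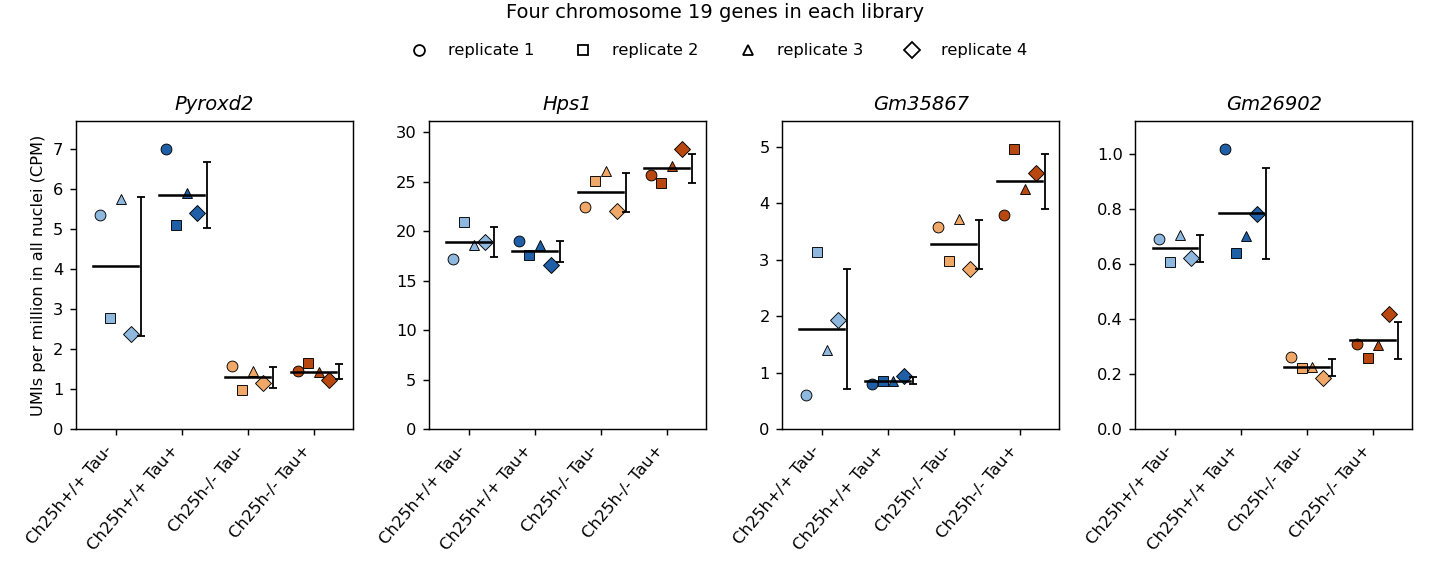
CPM of each gene over all nuclei (vertical axes, each from 0) in the 16 libraries, by group, with a marker shape per replicate, a line at the group mean and a bar of 1 SD (n = 4). Replicates 2 and 4 of Ch25h+/+ Tau- sit between the genotypes for Pyroxd2 (2.79 and 2.39 CPM) and are the 2 highest intact libraries for Gm35867 (3.14 and 1.94 CPM).

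Of the 4 genes, 3 had no overlap between the 4 and 4 libraries of Tau-, where 1.39% of the 20731 genes averaging 10 or more UMIs per library had none. In Tau+ all 4 had none, against 6.04% of genes. Over 8 and 8 libraries, 7 genes (0.0338%) had none. They were Pyroxd2, Hps1 and Gm26902, chosen genes that all lie on chromosome 19, and Gm50196, Arl3, Gm36693 and Brd3os. Of those not chosen, Gm50196, Arl3 and Gm36693 are on chromosome 19 and Brd3os is on chromosome 2. Chromosome 19 holds 3.27% of the genes considered. Gm50196 lies at chr19:45843617-45848296 in the same stretch and was not among the chosen genes. It averaged 5.92 CPM in libraries labelled Ch25h+/+ (4.75 to 7.86) and 8.96 CPM in those labelled Ch25h-/- (8.06 to 10.9). Arl3, which encodes a small GTPase of primary cilia, lies just past the stretch at chr19:46531096-46573198. It averaged 64.5 CPM (57.6 to 79.8) and 85.9 CPM (81.5 to 93.8), with replicate 4 of Ch25h+/+ Tau- the highest intact library at 79.8 CPM and replicate 2 at 62.4 CPM. Since the 4 genes were chosen on this difference, nothing is read from these shares about them.

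**Figure D2:**
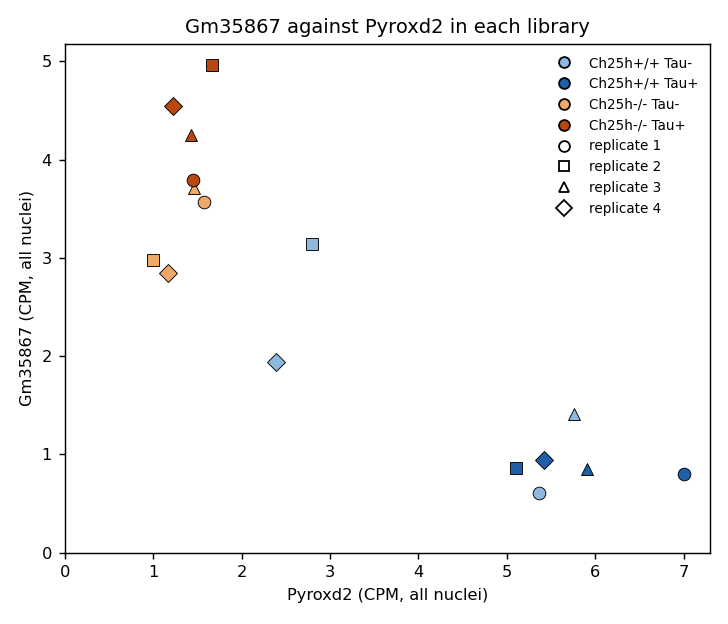
Gm35867 (vertical axis) against Pyroxd2 (horizontal axis), both in CPM over all nuclei, 1 point per library, coloured by group with a shape per replicate. The libraries labelled Ch25h-/- sit at the upper left, 6 labelled Ch25h+/+ at the lower right, and replicates 2 and 4 of Ch25h+/+ Tau- between them.

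The genotype difference in Pyroxd2 was uneven across cell classes. In CA pyramidal neurons it read 5.41, 3.0, 5.54 and 2.52 CPM in replicates 1 to 4 of Ch25h+/+ Tau- and 0.400, 0.305, 0.527 and 0.209 CPM in those of Ch25h-/- Tau-. In Tau+ the same neurons read 5.65, 6.13, 5.08 and 5.47 CPM with Ch25h intact and 0.497, 0.606, 0.755 and 0.324 CPM without. Pyroxd2 was thus 11.4-fold and 10.2-fold lower, with no overlap, and replicates 2 and 4 of Ch25h+/+ Tau- were again the 2 lowest intact libraries. The ratio was also large in DG granule neurons, at 5.68-fold lower in Tau- and 8.93-fold lower in Tau+. Without replicates 2 and 4 of Ch25h+/+ Tau- the log2 ratio in Tau- went from -3.51 to -3.92 in CA pyramidal neurons and from -2.51 to -2.91 in DG granule neurons. It was 4.41-fold and 4.0-fold lower in oligodendrocyte precursors, the dividing glia that give rise to oligodendrocytes, on 44 UMIs against 11 over both tau states. Other excitatory neurons, named by markers outside the CA and DG lists, read 4.04-fold less in Tau- and 8.29-fold less in Tau+. Inhibitory neurons, which release GABA, read 6.86-fold less in Tau- and 4.91-fold less in Tau+, on 50 UMIs against 11. Their Ch25h-/- means varied widely between libraries, at 0.126 ± 0.162 CPM in Tau- and 0.365 ± 0.432 CPM in Tau+ (SD, n = 4). The log2 ratio there in Tau+ was -1.69 within batch 1 and -3.61 within batch 2. In these 5 classes the genotypes did not overlap in either tau state. The share of all genes without overlap was counted over all nuclei only. Absence of overlap within a class, here and below, is therefore a description with no background rate beside it. Oligodendrocytes read 1.85 ± 1.5 against 0.835 ± 0.779 CPM in Tau- and 4.14 ± 1.80 against 1.02 ± 0.671 CPM in Tau+ (SD, n = 4), and there the libraries overlapped.

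Astrocytes showed no such difference in Pyroxd2. They read 3.03 ± 0.178 against 2.87 ± 0.280 CPM in Tau- and 3.28 ± 1.03 against 4.23 ± 0.881 CPM in Tau+ (SD, n = 4, Ch25h+/+ first). Microglia read 56.8, 20.1, 102 and 33.2 CPM in replicates 1 to 4 of Ch25h+/+ Tau- and 19.5, 30.9, 22.9 and 19.3 CPM in those of Ch25h-/- Tau-. The microglial ranges overlapped through replicate 2, and in Tau+ they overlapped as well, at 39.8 ± 7.55 against 30.7 ± 5.51 CPM. Without replicates 2 and 4 the microglial log2 ratio in Tau- went from -1.20 to -1.78.

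The smaller classes were read mainly as sums over the libraries of a genotype, with exact Poisson 95% intervals that cover counting error and not the spread between libraries. Pyroxd2 in fibroblasts read 43.4 CPM (35.3 to 52.9, 98 UMIs) with Ch25h intact and 34.6 CPM (27.7 to 42.7, 86 UMIs) without. The means over libraries ran the other way, at 45.5 ± 9.87 and 55.8 ± 70.9 CPM (SD, n = 8), and the tau states were opposite, at 46.2 against 83.9 CPM in Tau-, where 1 Ch25h-/- library read 229.7 CPM, and 44.6 against 27.7 CPM in Tau+. In border-associated macrophages, the resident macrophages of the brain's borders, it read 50.8 CPM (29.6 to 81.4) and 49.7 CPM (26.4 to 84.9). Ependymal cells, which line the ventricles, read 25.6 CPM (17.4 to 36.4) and 24 CPM (14.0 to 38.5), with means over libraries of 23.0 ± 13.5 and 46.6 ± 73.0 CPM (SD, n = 8). Choroid plexus epithelial cells, found in 7 libraries of each genotype, ran the other way at 2.99 CPM (1.77 to 4.73, 18 UMIs) and 6.88 CPM (4.41 to 10.2, 24 UMIs). The intervals of the genotypes overlapped in these 4 classes, which is not a test of their difference. In choroid plexus epithelial cells the ratio of counts without Ch25h to counts with it had an exact 95% interval of 0.96 to 6.95 in Tau- and 0.524 to 4.50 in Tau+. Endothelial cells read 15.7 CPM (6.30 to 32.3) on 7 UMIs with Ch25h intact and 0 of 365070 UMIs without, where the interval reaches 10.1 CPM and a floor of 3 counts is 8.22 CPM. Mural cells, newly formed oligodendrocytes, Cajal-Retzius cells and T cells held 0 to 5 UMIs of Pyroxd2 per genotype.

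The mean of Hps1 was higher in libraries labelled Ch25h-/- in all 4 tested neuronal classes and in oligodendrocytes, in both tau states. Of the smaller classes, Cajal-Retzius cells, T cells, fibroblasts and ependymal cells had lower means without Ch25h in both tau states. Choroid plexus epithelial cells had higher means. These 5 classes held at most 51 UMIs of Hps1 per genotype, with overlapping libraries. The libraries did not overlap in either tau state in CA pyramidal neurons, and in Tau+ alone they did not overlap in inhibitory neurons, other excitatory neurons and oligodendrocytes. DG granule neurons overlapped in both. CA pyramidal neurons read 21.1 ± 2.16 against 29.7 ± 3.32 CPM in Tau- and 20.1 ± 1.20 against 31.3 ± 1.38 CPM in Tau+ (SD, n = 4, Ch25h+/+ first). Inhibitory neurons in Tau+ read 16.6 ± 1.01 against 27.7 ± 2.10 CPM, the largest log2 ratio of Hps1 in the 8 tested classes, 0.74. Oligodendrocytes in Tau+ read 15.5 ± 3.69 against 23.4 ± 3.31 CPM. Astrocytes in Tau+ differed by less than the spread, at 24.4 ± 2.02 against 25.2 ± 0.698 CPM. In Tau- they were lower without Ch25h and did not overlap, at 18.0 ± 0.333 against 24.1 ± 4.42 CPM. How many genes of astrocytes separate in this way was not counted, so nothing is read from that reversal. Microglia and oligodendrocyte precursors overlapped in both tau states.

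Gm35867 was higher without Ch25h in Tau+ in all 4 tested neuronal classes, astrocytes and oligodendrocytes, with no overlap. Microglia (3 UMIs against 16) and oligodendrocyte precursors (6 against 8) overlapped. CA pyramidal neurons in Tau+ read 0.729 ± 0.163 against 4.04 ± 0.382 CPM, a 5.54-fold ratio. Astrocytes in Tau+ read 1.07 ± 0.249 against 6.72 ± 1.96 CPM, a 6.29-fold ratio. Oligodendrocytes in Tau+ read 0.631 ± 0.461 against 4.57 ± 1.09 CPM, a 7.25-fold ratio (SD, n = 4). In Tau- the ratios of the 6 tested classes without overlap in Tau+ were smaller. CA pyramidal neurons read 1.34 ± 0.788 against 3.15 ± 0.753 CPM (2.35-fold) and other excitatory neurons 1.77 ± 1.11 against 3.80 ± 0.149 CPM (2.14-fold), without overlap. In DG granule neurons (1.54-fold), inhibitory neurons (1.72-fold), oligodendrocytes (1.81-fold) and astrocytes (2.78-fold) the libraries of Tau- overlapped, as they did in microglia and oligodendrocyte precursors. Without replicates 2 and 4 of Ch25h+/+ Tau- the log2 ratio in Tau- went from 1.23 to 2.11 in CA pyramidal neurons, from 0.62 to 1.42 in DG granule neurons, from 1.1 to 1.76 in other excitatory neurons, from 0.79 to 1.54 in inhibitory neurons and from 0.86 to 1.87 in oligodendrocytes. In astrocytes the 2 intact libraries that remained held none of it. Fibroblasts held 4 UMIs with Ch25h intact (1.77 CPM, 0.483 to 4.54) and 33 without (13.3 CPM, 9.14 to 18.6). In choroid plexus epithelial cells the tau states went opposite ways, at 5.42 against 3.69 CPM in Tau- (11 UMIs each) and 1.12 against 7.49 CPM in Tau+ (5 and 15 UMIs), with overlapping libraries in both. Replicates 2 and 4 of Ch25h+/+ Tau- were the 2 highest intact Tau- libraries in CA pyramidal neurons (2.23 and 1.68 CPM), in DG granule neurons (2.34 and 1.58 CPM), in inhibitory neurons (4.73 and 3.52 CPM) and in oligodendrocytes (3.80 and 2.72 CPM). Microglia went the other way on 2 UMIs, with an intact Tau- mean of 1.14 CPM that was 2.27 CPM without those replicates.

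Gm26902 was read mostly in inhibitory neurons, which held 151 of its 283 UMIs in libraries labelled Ch25h+/+. In inhibitory neurons it read 4.86, 3.82, 4.39 and 3.52 CPM in replicates 1 to 4 of Ch25h+/+ Tau- and 0.580, 1.03, 0.323 and 0.170 CPM in those of Ch25h-/- Tau-. In Tau+ it read 4.44, 3.31, 4.38 and 3.55 CPM with Ch25h intact and 0.989, 0.594, 0.459 and 1.09 CPM without. The genotypes did not overlap, and the ratio was 7.90-fold lower in Tau- and 5.01-fold lower in Tau+. Other excitatory neurons read 1.08 ± 0.226 against 0.174 ± 0.0812 CPM in Tau+, without overlap, and 0.652 ± 0.249 against 0.326 ± 0.196 CPM in Tau-, where the libraries overlapped. CA pyramidal neurons held 13 UMIs of it with Ch25h intact and 15 without, and DG granule neurons 6 and 18. In oligodendrocytes the difference ran the other way, at 2 UMIs (0.0935 ± 0.177 CPM, SD, n = 8) with Ch25h intact and 15 (0.662 ± 0.552 CPM) without.

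Of the 4 clusters of inhibitory neurons, the one led by Btbd11 and Erbb4 read the most Gm26902. This cluster was singled out after its values were seen. It read 8.55 CPM (6.95 to 10.4, 99 UMIs) with Ch25h intact and 0.326 CPM (0.0889 to 0.836, 4 UMIs) without, pooled over libraries. The cluster led by Sst, the gene for somatostatin, read 3.28 CPM (2.29 to 4.53) and 0.665 CPM (0.287 to 1.31). The cluster led by Adarb2 and Vip read 1.22 CPM (0.628 to 2.12) and 1.03 CPM (0.516 to 1.85), which overlap within counting error. The cluster led by Hapln1, Fgf13 and Gad2 held few UMIs of it, at 0.722 CPM (0.197 to 1.85, 4 UMIs) and 0.474 CPM (0.0977 to 1.38, 3 UMIs), and these overlap as well.

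**Figure D3:**
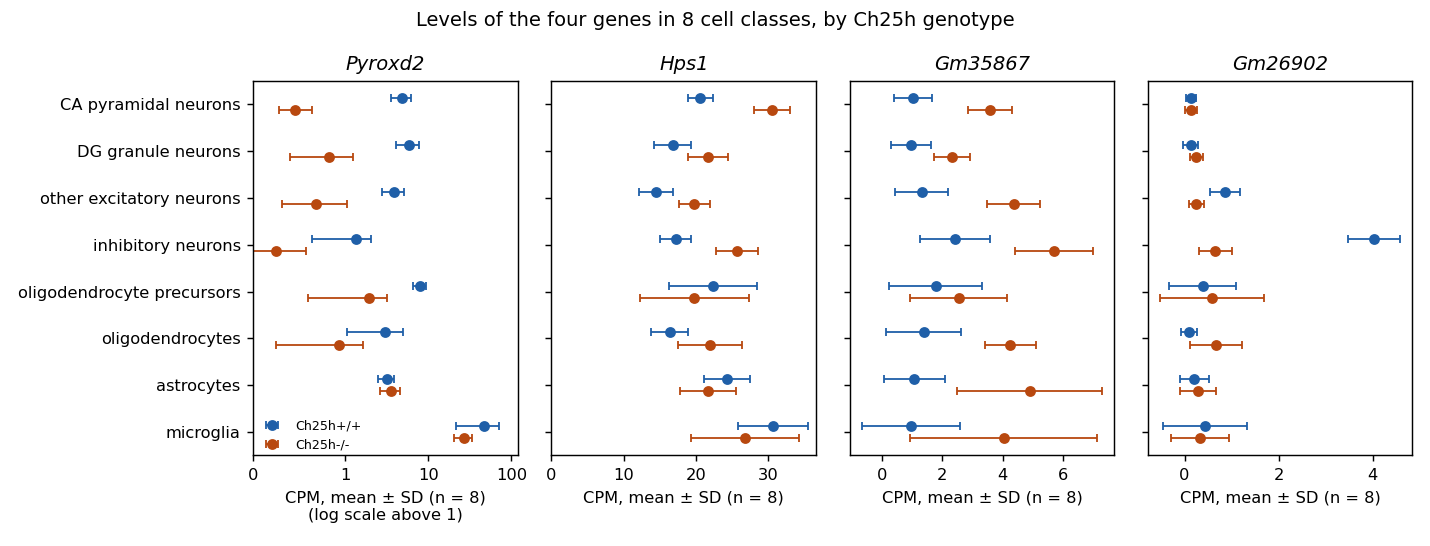
Mean CPM (horizontal axes) of each gene in 8 classes over the 8 libraries of each Ch25h genotype, with bars of 1 SD over libraries, and a log scale above 1 for Pyroxd2, where 1 bar is clipped at 0. Gm26902 stands out in inhibitory neurons with Ch25h intact (4.03 CPM), and the genotypes lie close for Pyroxd2 in astrocytes (3.16 and 3.55 CPM).

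The order of the classes was tested by two-sided exact sign-flip permutation tests between neighbours in the order, over the 8 libraries of a genotype. Of 56 neighbouring pairs, 0 passed a Benjamini-Hochberg adjusted p of 0.05, and the smallest p the design allows, 0.0078, became 0.0729. A pair could pass only if more pairs had reached that p, so 0 passing says little about any 1 pair. The order came from the means of the same libraries, so the pairs and their direction were set by the values tested. Ranks are among the 8 tested classes, and the smaller classes were not ranked. With Ch25h intact, Pyroxd2 was highest of the 8 in microglia at 46.4 ± 25.1 CPM (SD, n = 8), above oligodendrocyte precursors at 7.96 ± 1.48 CPM in 8 of 8 libraries. DG granule neurons, CA pyramidal neurons and other excitatory neurons followed at 5.85 ± 1.84, 4.85 ± 1.33 and 3.89 ± 1.16 CPM. Astrocytes (3.16 ± 0.696 CPM) and oligodendrocytes (3.0 ± 1.96 CPM) differed by less than their spread, and inhibitory neurons were lowest at 1.33 ± 0.686 CPM. Without Ch25h microglia stayed first of the 8 at 26.9 ± 6.49 CPM, astrocytes came second at 3.55 ± 0.945 CPM, and CA pyramidal neurons were the seventh at 0.453 ± 0.178 CPM. Of the unranked classes, border-associated macrophages and fibroblasts were close to microglia with Ch25h intact, at means of 42.0 ± 32.6 and 45.5 ± 9.87 CPM, and they and ependymal cells had higher means without, at 39.5 ± 55.3, 55.8 ± 70.9 and 46.6 ± 73.0 CPM, all within the spread over libraries. Of the 8 classes, Hps1 was first in microglia with Ch25h intact (30.6 ± 4.8 CPM) and first in CA pyramidal neurons without (30.5 ± 2.50 CPM). Gm26902 in inhibitory neurons, at 4.03 ± 0.557 CPM, exceeded the next class by 3.17 CPM in 8 of 8 intact libraries. It had enough counts for edgeR only over all nuclei and in inhibitory neurons. Its height in that class can therefore have helped to choose it, and its place in the order is a description.

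Free RNA was read in barcodes under 100 UMIs, which hold no nucleus by these filters. There Pyroxd2 read 6.62 ± 2.18 against 1.67 ± 1.14 CPM in Tau- and 10.8 ± 3.13 against 2.21 ± 0.820 CPM in Tau+ (SD, n = 4, Ch25h+/+ first). Gm35867 read 3.13 ± 1.13 against 4.78 ± 1.44 CPM in Tau- and 1.35 ± 0.938 against 6.47 ± 2.41 CPM in Tau+. Hps1 read 18.0 ± 2.09 against 31.6 ± 9.18 CPM in Tau- and 22.3 ± 0.740 against 33.8 ± 10.1 CPM in Tau+. Gm26902 read 1.60 ± 0.772 against 0.758 ± 0.627 CPM in Tau- and 1.80 ± 0.362 against 0.766 ± 0.732 CPM in Tau+. The group means of free RNA thus differed in the same direction as the nuclei for all 4 genes, and its part in the values of single classes was not tested.

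Whether tau changed these genes was tested with edgeR's quasi-likelihood test, on a contrast that did not choose them, although it shares its libraries with the one that did. None of the 22 tests of the 4 genes over all nuclei and 8 classes passed an adjusted p of 0.05 in either Ch25h genotype. Over all genes 0.234% of tests passed with Ch25h intact and 0.259% without. Some of the 22 tests rest on few UMIs in the genotype where the gene was low, so the lack of a call there says little. Without Ch25h, Gm26902 in inhibitory neurons had 11 UMIs in Tau- and 15 in Tau+, and Pyroxd2 in CA pyramidal neurons had 18 and 31. With Ch25h intact, Gm35867 in astrocytes had 10 and 11. At an unadjusted p under 0.05 there were 4 of 22 with Ch25h intact, where 8.12% of edgeR tests over all genes were, and 2 of 22 without, against 8.46%. The 4 were all of Gm35867, over all nuclei and in CA pyramidal, DG granule and other excitatory neurons, which are part of all nuclei. The 2 were of Hps1 and Gm35867 in astrocytes. DESeq2 called 1 of the 30 tests to which it gave an adjusted p with Ch25h intact, against 0.518% over all genes, and 0 of 28 without, against 0.697%. Over all nuclei with Ch25h intact, Pyroxd2 had a log2 fold change for Tau+ of 0.44 (SE 0.24, edgeR adjusted p = 0.412) and Hps1 of -0.17 (SE 0.08, adjusted p = 0.353). Gm35867 had -1.14 (SE 0.33, edgeR adjusted p = 0.138), with all 4 Tau+ libraries above replicate 1 and below the other 3 libraries of Tau-. DESeq2 called this value, at an adjusted p of 0.0277, and was the only one of the settings tried to do so. Without replicates 2 and 4 of Ch25h+/+ Tau-, the 2 highest of that group in Gm35867, it was -0.28 (edgeR adjusted p = 0.778). That omission was chosen after these values were seen, so the smaller value followed from the choice. Over all settings the adjusted p of Gm35867 was at least 0.0277. The same omission brought the value of Pyroxd2 to 0.01. Gm26902 had 0.16 (SE 0.19, edgeR adjusted p = 0.746). Without Ch25h the 4 log2 fold changes for Tau+ were 0.14 for Pyroxd2, 0.12 for Hps1, 0.40 for Gm35867 and 0.49 for Gm26902 (edgeR adjusted p = 0.914, 0.615, 0.679 and 0.495).

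No test is given of whether the Ch25h difference of the 4 genes depended on tau, since that interaction is the difference between the comparisons in Tau- and Tau+ on which they were chosen. As a description, the log2 ratios over all nuclei in Tau- and Tau+ lay furthest apart for Gm35867, at 0.88 and 2.34, and at 1.70 and 2.34 without replicates 2 and 4 of Ch25h+/+ Tau-.

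The other 193 genes of the stretch were then read for Ch25h loss. Over all nuclei and 8 classes edgeR called 0.00317% of gene and class tests in Tau- and 0.00794% in Tau+. These calls fell on the genes set apart, which this contrast chose, so they are no test of those genes. Of 151 other genes of the stretch tested, 0 were called in either tau state by edgeR. Since the genes with calls were the ones set apart, that 0 follows from the choice and nothing is read from it. Over all nuclei 12 of 151 had an unadjusted p under 0.05 in Tau- (7.95%, against 3.45% of all genes), and 22 of 151 in Tau+ (14.6%, against 6.05%). The lowest adjusted p among them was 0.0758, in Tau+. DESeq2 called 0 of 1557 gene and class tests of the other genes of the stretch in Tau-, against 0.00439% over all genes. In Tau+ it called 3 of 1554, against 0.011%. The 3 were Gm50196 over all nuclei and in other excitatory neurons, and Bloc1s2 over all nuclei. Over all nuclei the DESeq2 log2 fold change of Gm50196 was 0.83 (adjusted p = 3.92e-05) and that of Bloc1s2 0.34 (adjusted p = 0.0199). In edgeR Gm50196 had a log2 fold change of 0.83 in Tau+ with all libraries and was not called. It was called without replicate 2 of Ch25h+/+ Tau- (log2 fold change 0.81, adjusted p = 0.0383) and without replicates 2 and 4 (adjusted p = 0.0341). Those libraries are not in the Tau+ comparison and enter it only through the shared fit. The call thus changed with little change in the log2 fold change.

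**Figure D4:**
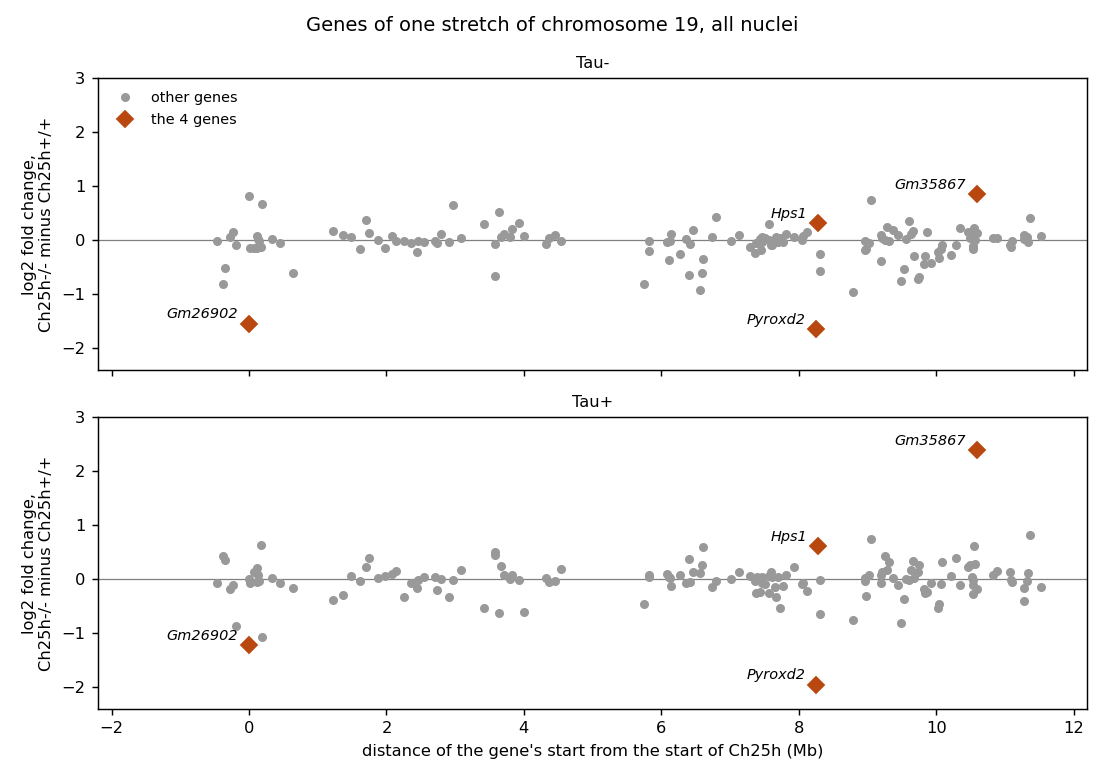
Log2 fold change of Ch25h-/- minus Ch25h+/+ (vertical axes) over all nuclei against the distance of each gene's start from that of Ch25h in Mb (horizontal axis), for the 4 genes and the 151 other tested genes of the stretch, in Tau- and Tau+. Pyroxd2 and Hps1 sit side by side at 8.25 and 8.28 Mb on opposite sides of 0.

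Other genes of the pathways of Hps1 and Pyroxd2 were read from 2 lists. Of 24 genes of lysosome-related organelle biogenesis and 10 pyridine nucleotide-disulphide oxidoreductases, all 34 were tested in at least 1 class, and edgeR called 0 for Ch25h loss in Tau- or Tau+. At an unadjusted p under 0.05 there were 8 of 252 tests in Tau-, where 3.52% of edgeR tests over all genes were, and 20 of 252 in Tau+, against 3.64%. These tests repeat the 34 genes over all nuclei and over classes that are part of all nuclei, so they are not separate. Bloc1s2 and Hps6, both on chromosome 19, are among them, and no count was made without these genes. Nothing is therefore read from these counts about the pathways. DESeq2 called 0 and 1 of 306, the latter Bloc1s2, a subunit of the BLOC-1 and BORC complexes that itself lies in the stretch. Bloc1s2 read 27.8 ± 2.03 against 31.9 ± 1.39 CPM in Tau- and 27.7 ± 1.60 against 33.6 ± 2.36 CPM in Tau+ (SD, n = 4, Ch25h+/+ first). The median log2 fold change of the organelle list over all nuclei was 0.04 in Tau- and 0.05 in Tau+, against -0.000755 and 0.00935 over all genes. That of the oxidoreductase list was 0.14 and -0.07. Hps4, the partner of HPS1 in its complex, read 45.7 ± 7.99 and 46.1 ± 4.94 CPM in Ch25h+/+ Tau- and Ch25h-/- Tau-, and 50.8 ± 9.73 and 50.2 ± 8.71 CPM in the Tau+ groups.

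The genes whose levels over the 16 libraries were most like those of the 4 were taken as the 5 of highest and the 5 of lowest Pearson's r of log2(CPM + 1) over all nuclei. Since the libraries fall into genotypes, this likeness describes that split and in part the differences within Ch25h+/+ Tau-. Of the genes named below, Gm16299 on chromosome 19 read 0.649, 2.90, 0.728 and 3.07 CPM in replicates 1 to 4 of that group. Arl3 read 58.5, 62.4, 63.7 and 79.8 CPM there, and did not set replicates 2 and 4 apart together. Each set of 10 held the other 3 chosen genes. Leaving the 4 out, the sets held 17 genes, of which 10 were on chromosome 19. Pyroxd2 was most like Gm26902 (r = 0.93), followed by Cfap43 (0.87), Ins2 (0.84), Gm36693 (0.83) and Asah2 (0.83). It was least like Gm35867 (-0.91), Arl3 (-0.91), Gm50196 (-0.89), Hps1 (-0.87) and Bloc1s2 (-0.76). Hps1 was most like Gm35867 (0.92), followed by Bloc1s2, Gm50196, Arl3 and Ccno, and least like Pyroxd2, Gm36693, Ins2, Gm26902 and Mfsd13a. Gm35867 was most like Gm50196 (0.94), followed by Hps1, Arl3, Stn1 and Gm16299, and least like Pyroxd2, Gm26902, Gm36693, Glmp and Phf23. Gm26902 was most like Pyroxd2, followed by Asah2 (0.85), 9230111E07Rik, Atad1 and Tcea1, and least like Gm50196 (-0.88), Arl3, Gm35867, Hps1 and Gm14198. Asah2, which encodes the neutral ceramidase, and Atad1 lie 2.49 and 1.80 Mb on the other side of Ch25h from the 4 genes.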

How the data were processed

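Droplet libraries of hippocampal nuclei were deposited as UMI counts per gene and barcode. The count matrices name Cell Ranger 4, per the file headers, while the submitters' processing notes name Cell Ranger 3.1.0 and the build mm10. The annotation and the treatment of introns and strand are not given in the sources used here. Gene coordinates are from GENCODE M21 by identifier (32158 of 32285), and upstream sequences are from RefSeq; Gm26902 has no entry there.

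Nuclei had at least 500 UMIs, at least 300 genes and at most 5% mitochondrial UMIs (147873). The nuclei of highest Scrublet score were removed as doublets, 0.8% per 1000 nuclei (11045). Leiden clustering (scanpy 1.11.5, leidenalg 0.10.2; 62 clusters, 32 named) gave the classes. A cluster needed 3 markers at 2-fold; other limits on naming were set after the clusters were seen. Counts were summed per library and class and tested with edgeR 4.0.16 (quasi-likelihood, TMM scaling, filterByExpr, robust) over all nuclei and in the 8 classes holding 20 or more nuclei per library, 16 libraries in 1 fit, with Benjamini-Hochberg adjustment within each class and contrast. CPM scale a gene's UMIs to the summed UMIs of that library and class. The fit was tested on simulated counts. DESeq2 1.42.0, other scaling, no filter, batches, 1000 UMIs and left-out libraries were alternatives. Intervals and floors (3 counts) cover counting error only.

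Named were the 4 genes, Ch25h, listed genes called, genes of the stretch called alike in both tau states (0), and the 5 genes of highest and of lowest likeness to each of the 4 (Pearson's r of log2(CPM + 1)). Brd3os and Hps4 fall outside this rule and were named after their values were seen. The members and the lists were chosen with earlier results of these data known.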

Additional observations from a re-analysis of the deposited data

Results flagged for a closer look

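Of 48 groups of 4 libraries examined, 2 held a library far from the other 3, where chance gives about 1 group in 20. Both were in free RNA, the barcodes under 100 UMIs. Pyroxd2 read 3.36 CPM in replicate 1 of Ch25h-/- Tau-, above 0.847 to 1.24 CPM in the other 3 libraries, on 8 UMIs. Gm35867 read 2.86 CPM in replicate 1 of Ch25h-/- Tau+, below 7.54 to 7.90 CPM in the other 3 libraries, on 5 UMIs. In the nuclei of these libraries the genes read 1.58 CPM, the highest of its group, and 3.79 CPM, the lowest of its group.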

How the results depend on the processing

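No paired analysis was possible because the labels give no replicate numbers, and the numbers used here follow the order of deposit. The count of calls of the 4 genes for the tau effect with Ch25h intact was 0, and 1 with DESeq2 (Gm35867). The count for the tau effect without Ch25h was 0 under each alternative run. The interaction was fitted as planned and is not given as a test because the comparisons it joins chose the genes. It had 0 calls of the 4 genes in each setting run. In the main edgeR fit it had 0 calls over all genes as well, over all nuclei and in each class, so nothing is read from that 0. The count of other genes of the stretch called for Ch25h loss in Tau+ was 0, with a range of 0 to 1 when 1 library was left out. It was 1 without both replicates 2 and 4 of Ch25h+/+ Tau-, an alternative chosen after seeing the data, and 2 with DESeq2. In Tau- it was 0 throughout. The 2 pathway lists had 0 genes called, and 1 with DESeq2. The log2 ratio of Hps1 in Tau+ was 0.47 in batch 1 alone and 0.64 in batch 2 alone, and that of Gm35867 in Tau- went from 0.88 to 1.70 without replicates 2 and 4, the cause of which was not tested. When 1 library was left out, the log2 ratios in Tau- ranged from -1.83 to -1.43 for Pyroxd2, 0.29 to 0.39 for Hps1, 0.60 to 1.31 for Gm35867 and -1.62 to -1.46 for Gm26902. Over all nuclei, no log2 ratio of the 4 genes changed sign under TMM scaling, 1000 UMIs, kept doublets, single batches or left-out libraries. In single classes some did within a batch, such as Gm26902 in CA pyramidal neurons in Tau- (-1.81 and 2.48 in batches 1 and 2, on 4 and 7 UMIs). The class order was not run within single batches. Counts limit Gm26902 most, with 10 to 47 UMIs per library over all nuclei.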
